A study of Sus scrofa with 18 samples.

Results

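Tumour tissue labelled scrotum from a double knock-in (DIK) pig was set against normal tissue with the same label from wild-type (WT) pigs, with 3 messenger RNA libraries in each group, 6 of the 18 libraries in the series. The libraries were chosen by their labels, though earlier results of these data were known. Per the series title, the DIK line joins elements of Tet-on, a gene switch worked by doxycycline (Dox), with those of phiC31, an integrase that recombines DNA at its own sites. The labels name neither the genes it controls nor the promoters that drive them. From 7 months of age, Dox was fed to 3 DIK founder pigs and also to age-matched WT pigs, so both groups carry that treatment. Tumours grew at the nose, mouth and scrotum of 1 founder, and tissue from it and from WT pigs was taken 8 months after induction. All DIK libraries are thus from 1 animal. The labels do not say how many WT animals gave tissue or whether the libraries of a group are separate pieces. The p-values below therefore reflect only how libraries spread within their groups, which may be a technical spread. That spread was estimated over all 18 libraries of the series, not only the 6 compared here.

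As background, skin and the lining of the mouth are stratified squamous epithelia. Keratinocytes divide in a basal layer held to the underlying matrix by integrins and laminins, marked by KRT5, KRT14 and the transcription factor TP63. As they move up they stop dividing, join through desmosomes and build a crosslinked protein shell, the cornified envelope. Dry skin then makes KRT1, KRT10, loricrin and filaggrin-type proteins, while moist mucosa makes KRT4, KRT13 and cornulin, and injured or hyperplastic skin switches on KRT6, KRT16 and S100 proteins. Squamous tumours often keep parts of these programmes while signals through EGFR, RAS and ERK drive division. The normal tissue sampled with such a tumour can hold muscle, connective tissue, nerve and vessels as well as epithelium.

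The DIK scrotum libraries, replicates 1 to 3 (DIK-s1, DIK-s2 and DIK-s3 below), held 3939949, 3486948 and 2024959 counts, and the WT scrotum libraries (WT-s1, WT-s2 and WT-s3) held 2961184, 4644189 and 4792168. A count of 3, used below as the floor, was worth 0.838 to 1.88 CPM in the DIK libraries and 0.611 to 1.26 CPM in the WT libraries. CPM is the count relative to the total of its library, after scaling by TMM, which corrects totals for a few very abundant genes. On log2 CPM the 3 DIK libraries correlated with each other at 0.945 to 0.968. WT-s1 and WT-s3 correlated at 0.932, but WT-s2 stood apart from both, at 0.81 with WT-s1 and 0.763 with WT-s3. The same library was nearer to the tumours than the other WT libraries were, at 0.686 to 0.716 with DIK libraries against 0.461 to 0.509 for WT-s1 and WT-s3. No pair of libraries agreed within counting noise, so none was counted as 1 sample with another.

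The label was checked first, and posterior HOX genes went against it. Posterior HOX genes are active in the hind body and silent in the head, and the 16 genes of that list found in the table summed to 4.19, 3.93 and 0.625 CPM in DIK libraries, against 3.36, 6.72 and 4.26 CPM in WT libraries. HOXA9, HOXA11, HOXA13, HOXB13, HOXC10, HOXC12, HOXD12 and HOXD13 were at 0 counts in all 6 libraries. Of the 4 members tested, HOXA9, HOXA10, HOXC9 and HOXD9, 0 rose and 0 fell, with a median of -1.20 (0 to -1.83 without DIK-s2, DIK-s3, WT-s1 or WT-s3) and adjusted p from 0.407 to 1. HOXA9, HOXA10 and HOXC9 had at most 1 count over the 6 libraries and passed the low-count filter through libraries of other labels. Their tests could not have called a difference here, so nothing is drawn from them. HOXA10, which patterns the hind body, had 0 counts in all DIK scrotum libraries and 1 count over the 3 WT scrotum libraries, while WT libraries labelled mouth averaged 21.9 CPM. HOXC9, another hind body gene, had 0 counts over the DIK and 1 count over the WT scrotum libraries, while WT mouth libraries averaged 17.7 CPM. Head and face patterning genes were counted in both groups, at 502, 649 and 399 CPM in DIK libraries, against 161, 118 and 134 CPM in WT libraries. Testis and epididymis genes summed to 8.38, 7.51 and 4.38 CPM in DIK libraries, against 8.39, 11.8 and 13.3 CPM in WT libraries. Whether the mouth and scrotum labels were exchanged was not tested. The labels are kept as deposited, and no body site is drawn from them. Both the tumour-against-normal differences and the departures between labels given below hold for the labels as they stand.

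Of 12895 genes tested, 2507 were higher and 3100 lower in the tumours, so 43.5% were called (19.4% higher and 24% lower). Calls were made where edgeR's quasi-likelihood test gave a p under 0.05 after Benjamini-Hochberg adjustment over all tested genes, and every adjusted p below is from that test. The median log2 difference over all tested genes, DIK minus WT, was -0.09. WT-s2 was singled out because it was known beforehand to hold much epidermal RNA. Without it, 3203 of 13334 genes were higher and 3365 lower, or 49.3% (24% higher and 25.2% lower). Between these fits 5260 genes were called with the same sign, and 1, CALML5, changed from lower to higher. Among genes tested in both fits, 816 further genes were called higher and 378 further genes lower without WT-s2. In the same genes 156 higher and 177 lower calls were lost. With so many genes called, a list is read below against these shares, and its median against the median of all genes. No test was run on a list as a whole. Most named genes were picked for a small adjusted p or for groups without overlap. That their groups do not overlap thus follows in part from how they were picked, and the share of all tested genes without overlap is not given here. Differences of genes are log2, DIK minus WT, ± SE, and a second value is that without WT-s2 where leaving it out moved the fold by more than 1.5 times. A count of list members has beside it the count without a left-out library where that differs by more than 1.5 times, and so has a median, over the members tested in that fit, also where its sign turns.

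**Figure D1:**
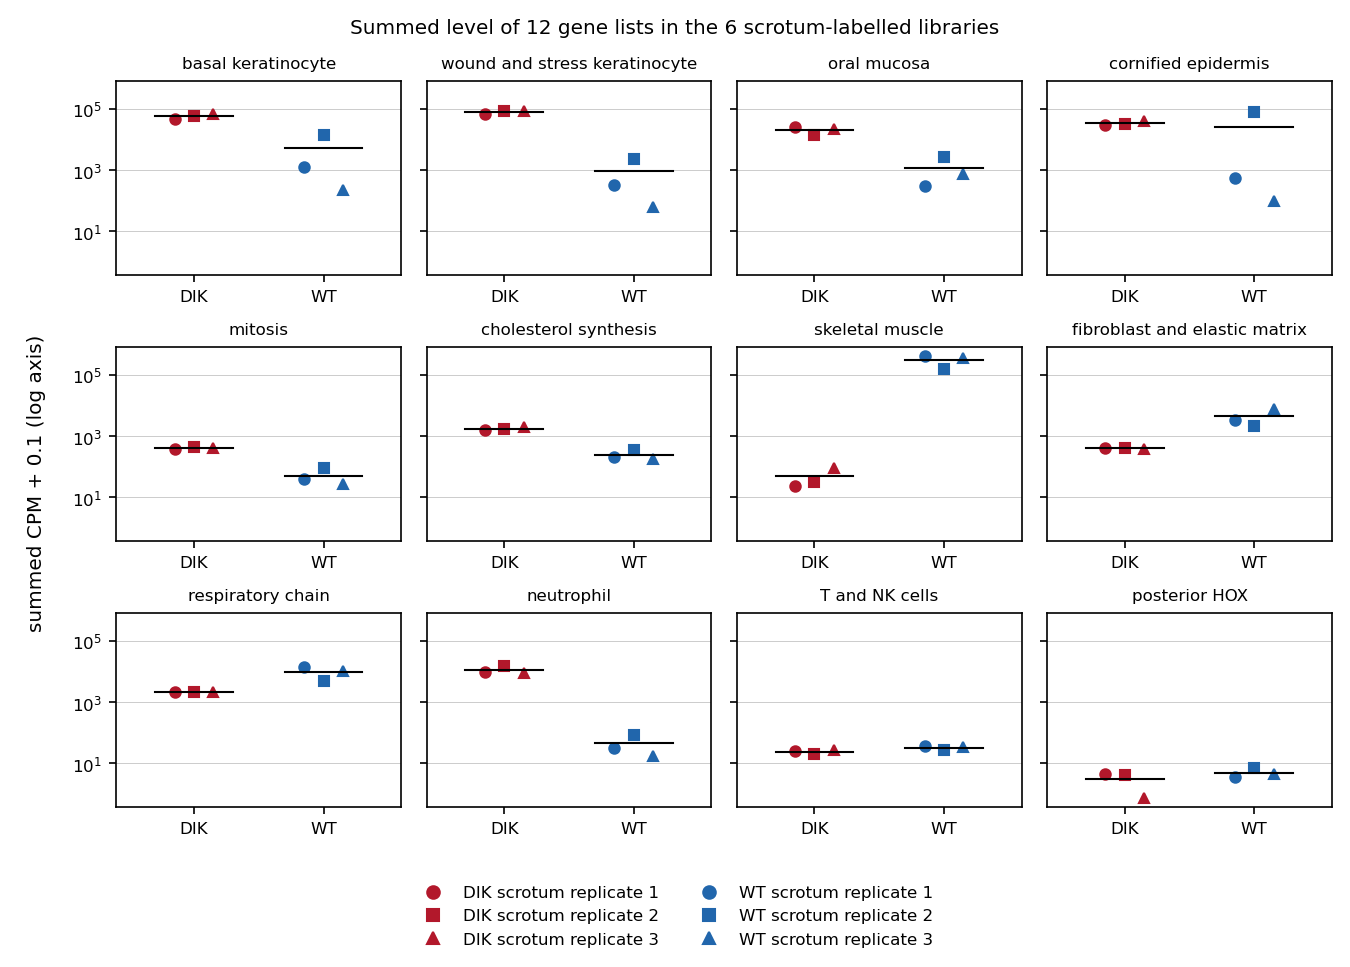
Summed CPM of 12 gene lists in each scrotum-labelled library, plotted as summed CPM + 0.1 on a log axis. Points are single libraries (DIK in red, WT in blue, with 1 symbol per replicate number) and bars are the mean of 3 libraries. Skeletal muscle genes sum to 24.0 to 90.6 CPM in DIK libraries, against 156440 to 417960 CPM in WT libraries, and cornified epidermis genes in WT-s2 lie above all other libraries.

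Of all lists, skeletal muscle had the median furthest from 0. Among its 29 tested genes 29 fell and 0 rose, and the median was -12.60, or -12.42 with genes at 0 set to their bound. They took 0.00218, 0.00255 and 0.00716% of the counts in DIK libraries, against 33.6, 16.5 and 29.8% in WT libraries. TTN, the giant spring of the sarcomere, had 2.24, 3.58 and 6.88 CPM in DIK libraries, against 46785, 13117 and 27025 CPM in WT libraries. Its difference was -12.79 ± 0.87 (adjusted p = 8.62e-09). ACTA1, the actin of skeletal muscle, had 2.52, 10.4 and 29.4 CPM in DIK and 88901, 59262 and 116520 CPM in WT libraries, a difference of -12.65 ± 1.64. The groups were far apart for both genes, and WT-s2 was the lowest WT library. MYH2, a fast myosin heavy chain, had 1.68, 1.07 and 8.13 CPM in the tumours and 48870, 8939 and 42192 CPM in WT tissue (-13.28 ± 1.11). MYH7, the slow myosin, had 1 count over the 3 DIK libraries, and its WT to DIK ratio was 11241 (95% counting interval 2017 to 444010). MYBPC1, which binds myosin, and CKMT2, the creatine kinase of muscle mitochondria, had 0 counts in the 3 DIK libraries, and were at least 5636-fold and 4969.6-fold lower there. Those counts lay near or under the floor in the tumours. CKM, the cytosolic creatine kinase, was counted at 1.68, 2.503 and 7.5003 CPM in DIK libraries, against 25742, 10330 and 18411 CPM in WT libraries. In bulk tissue fewer cells of a type and less RNA per cell cannot be told apart, here or in any group below.

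Genes that muscle shares with other tissues or uses for energy fell as well. DES, the intermediate filament of muscle, had 3 counts over the DIK libraries, and its WT to DIK ratio was 6923 (95% counting interval 2369 to 33571). Of 16 tested smooth muscle genes 13 fell and 0 rose, with a median of -4.88 (-4.09 without WT-s3), or -3.88 with genes at 0 set to their bound. Several of them, such as TPM2 and DES, are also abundant in skeletal muscle. TPM2, a tropomyosin, had 581, 655 and 582 CPM in DIK libraries, against 27451, 13793 and 23126 CPM in WT libraries (-5.15 ± 0.45). ACTA2, the actin of vessel walls and contractile fibroblasts, had 3507, 5073 and 5543 CPM in DIK and 11351, 4886 and 41482 CPM in WT libraries, and the groups overlapped. Its difference of -2.03 ± 0.62 was not called without DIK-s1 (adjusted p = 0.0589) or WT-s3 (-0.79, adjusted p = 0.256). Of 23 tested genes of the respiratory chain 23 fell, with a median of -2.23, and 0 rose. SDHA, the flavoprotein of complex II, had 43.6, 54.3 and 32.5 CPM in the tumours and 893, 221 and 753 CPM in WT tissue (-3.83 ± 0.41). NDUFS7, a core subunit of complex I, had 45.3, 58.3 and 49.4 CPM in DIK libraries, against 964, 342 and 710 CPM in WT libraries (-3.72 ± 0.34). No DIK library reached the lowest WT library for either gene. Muscle is rich in mitochondria, and the respiratory chain sums followed the muscle sums, at 2107, 2191 and 2179 CPM in DIK libraries, against 13749, 5047 and 10370 CPM in WT libraries. The part of muscle in these differences was not tested.

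Glycolysis split by isoform. Of 23 tested genes 5 rose and 8 fell, with a median of -0.39 (0.06 without WT-s1). The 3 muscle forms fell furthest. ENO3, muscle enolase, had 2.52, 5.01 and 1.25 CPM in DIK and 8555, 3756 and 7706 CPM in WT libraries (-11.09 ± 0.88). PGAM2, muscle phosphoglycerate mutase, had 0.838, 1.43 and 2.5001 CPM in the tumours and 3569, 1439 and 2919 CPM in WT tissue (-10.78 ± 0.57). PFKM, the muscle phosphofructokinase, differed by -6.06 ± 0.51. PFKL, the liver-type form of the same enzyme, had 148, 276 and 141 CPM in DIK libraries, against 43.6, 36.5 and 60.2 CPM in WT libraries. It rose by 2.01 ± 0.36 with no overlap. SLC2A1, the glucose transporter GLUT1, had 2034, 2739.5 and 1707 CPM in DIK and 22.2, 114 and 27.1 CPM in WT libraries (5.30 ± 0.64, and 6.45 without WT-s2), and every DIK library was above every WT library.

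Genes of squamous epithelium lay at the other end. Of 19 tested basal keratinocyte genes 11 rose and 1 fell (0 without DIK-s2), with medians of 2.69 and 4.53 with and without WT-s2. KRT5, the basal keratin, had 40071, 51456 and 60693 CPM in the tumours and 963, 12047 and 41.1 CPM in WT tissue. WT-s2 was the highest and replicate 3 the lowest WT library, yet all DIK libraries were above them. The difference was 3.54 ± 1.37, and 6.66 without WT-s2 (adjusted p = 0.0478 with all libraries), and it was not called without DIK-s1, DIK-s2, DIK-s3 or WT-s1 (adjusted p = 0.0693 to 0.144). TP63, the transcription factor that keeps the basal state, had 51.98, 47.9 and 44.4 CPM in DIK libraries, against 9.65, 37.9 and 5.27 CPM in WT libraries, and missed the threshold at 1.42 ± 0.60 (adjusted p = 0.0682). Without WT-s2 it was higher by 2.73 ± 0.50. ITGA6, the integrin subunit of hemidesmosomes, had 1385, 1369.9 and 907 CPM in DIK and 36.5, 122 and 56.9 CPM in WT libraries (4.08 ± 0.62, and 4.70 without WT-s2). Its partner ITGB4 had 130.2, 197 and 74.4 CPM in the tumours and 8.39, 25.1 and 11.5 CPM in WT tissue (3.13 ± 0.41, and 3.73 without WT-s2). Both integrin subunits were higher in each DIK library than in any WT library. LAMA3, a laminin chain of the epithelial basement membrane, differed by 4.13 ± 0.51. CDH3, P-cadherin of the basal layer, was higher as well (4.98 ± 0.71, and 6.61 without WT-s2).

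Junction genes and epithelial transcription factors leaned the same way. Of 18 desmosome and junction genes 7 rose (14 without WT-s2) and 0 fell, with a median of 2.48 (5.56 without WT-s2, 1.89 without WT-s3). DSC2, a desmosomal cadherin, had 989, 815 and 1398 CPM in DIK libraries, against 3.78, 11.6 and 1.003 CPM in WT libraries (7.56 ± 1.15, and 8.91 without WT-s2). JUP, plakoglobin, had 1013, 1231 and 1160.1 CPM in DIK and 22.7, 371 and 20.6 CPM in WT libraries (3.03 ± 0.78, and 5.71 without WT-s2), with WT-s2 well above the other WT libraries. OCLN, a tight junction protein, had 63.2, 37.5 and 113 CPM in the tumours and 5.45, 13.7 and 5.27 CPM in WT tissue (3.08 ± 0.56, and 3.71 without WT-s2). No DIK library was below a WT library for these genes. Of 19 squamous and epithelial transcription factors 8 rose (5 without WT-s1, 19 without WT-s2) and 0 fell, with a median of 2.06 (5.18 without WT-s2). ELF3, an epithelial ETS factor, had 114, 224 and 44.4 CPM in DIK libraries, against 0.4196, 0.204 and 0 CPM in WT libraries. With 2 counts over the WT libraries, its DIK to WT ratio was 781 (95% counting interval 216 to 6459). PITX1, a homeobox factor of jaw and hindlimb, had 72.9, 129 and 77.5 CPM in DIK and 0.839, 3.26 and 2.26 CPM in WT libraries (5.33 ± 0.43). SOX2, a factor of oral and oesophageal epithelium, had 9.78, 4.65 and 6.88 CPM in the tumours and 0.4196, 0.204 and 1.25 CPM in WT tissue (3.45 ± 0.66). PITX1 and SOX2 were low in every WT library. KLF5, a factor of dividing epithelium, had 56.2, 47.2 and 32.5 CPM in DIK libraries, against 0.839, 17.5 and 5.02 CPM in WT libraries (2.45 ± 0.57, and 3.80 without WT-s2). OVOL1, which represses basal genes as cells differentiate, had 62.04, 72.9 and 70.003 CPM in DIK and 2.098, 15.7 and 0 CPM in WT libraries (3.42 ± 0.81, and 6.31 without WT-s2). All of these were above the WT libraries in every DIK library.

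Mucosal genes were among the largest differences. Of the 7 tested oral mucosa genes 7 rose and 0 fell, with a median of 7.92, and of 8.002 without WT-s2. KRT4, a keratin of moist epithelia, had 13126, 1948 and 10531 CPM in the tumours and 13.01, 2.45 and 6.02 CPM in WT tissue. DIK-s2 was the lowest tumour library and was still far above the WT libraries, a difference of 10.25 ± 1.29 (adjusted p = 1.32e-05). KRT78, an epithelial keratin, had 3871, 3369.8 and 4349.6 CPM in DIK libraries, against 3.36, 23.4 and 1.76 CPM in WT libraries (8.63 ± 1.04, and 10.60 without WT-s2). CRNN, cornulin, had 1421, 546 and 1386 CPM in DIK and 8.39, 14.3 and 1.003 CPM in WT libraries (7.13 ± 0.91, and 7.998 without WT-s2). In WT-s2 too these genes lay far below the tumours. MUC21, a membrane mucin, had 454, 430.1 and 403 CPM in the tumours and 1.26, 0.204 and 0 CPM in WT tissue (10.04 ± 0.68). RHCG, an ammonium transporter of upper squamous layers, had 2253, 3622 and 1529 CPM in DIK libraries, against 9.65, 11.2 and 9.53 CPM in WT libraries (7.92 ± 0.75). MAL, a membrane trafficking protein also listed for nerve, had 439, 309 and 421 CPM in DIK and 3.36, 0.408 and 4.51 CPM in WT libraries (7.18 ± 0.69, and 6.59 without WT-s2). None of these groups overlapped.

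Genes of wounded and stressed keratinocytes were high as well. Of 10 tested members 9 rose and 0 fell, with medians of 6.78 and 8.75 with and without WT-s2. They summed to 69540, 82955 and 87708 CPM in DIK libraries, against 326, 2369.8 and 62.7 CPM in WT libraries. KRT6A, the keratin of wounds, had 36781, 32532 and 47740 CPM in the tumours and 187, 1679 and 24.6 CPM in WT tissue (5.95 ± 1.14, and 8.53 without WT-s2). S100A8 and S100A9 form calprotectin, a calcium-binding alarm protein of keratinocytes and neutrophils. S100A8 had 4619.9, 8863 and 5083 CPM in DIK libraries, against 7.55, 14.7 and 1.003 CPM in WT libraries (9.63 ± 1.35, and 10.59 without WT-s2). S100A9 had 3627, 7274 and 3339.5 CPM in DIK and 2.94, 18.7 and 0.502 CPM in WT libraries (9.28 ± 1.43, and 11.56 without WT-s2). DIK-s2 was the highest library for both. DEFB1, an antimicrobial beta-defensin, had 788, 847 and 1725 CPM in the tumours and 0.4196, 1.22 and 0.502 CPM in WT tissue (10.44 ± 0.84, and 11.11 without WT-s2). GJB2, the gap junction protein connexin 26, had 6994, 9877 and 9248 CPM in DIK libraries, against 56.6, 278 and 2.26 CPM in WT libraries (6.27 ± 1.12, and 8.23 without WT-s2). KRT6A, the S100 genes, and other keratins have close copies, so their counts depend on how reads were shared out between copies.

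**Figure D2:**
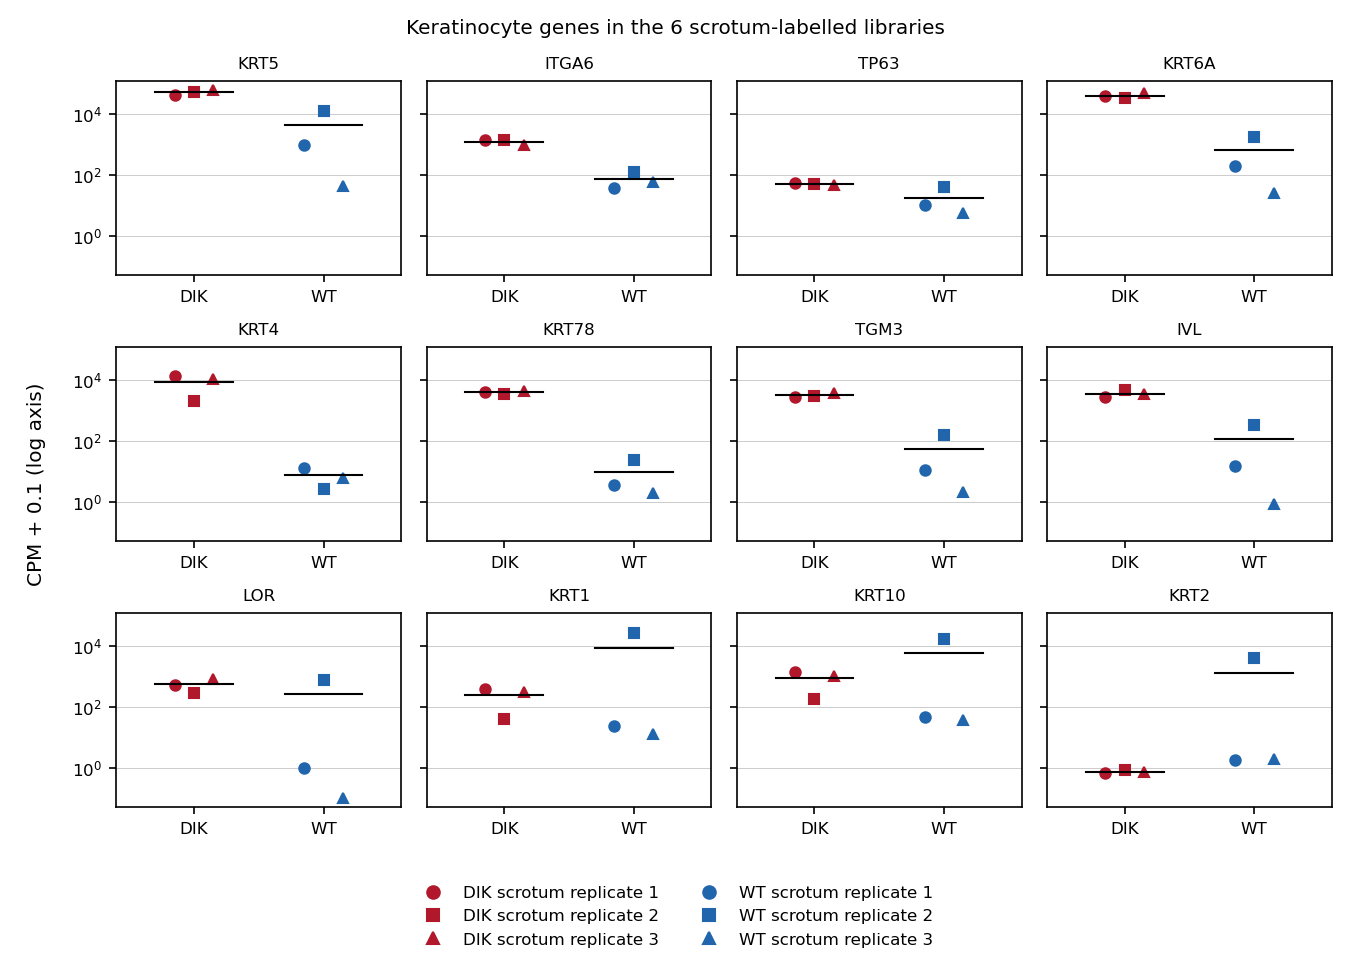
CPM of 12 keratinocyte genes in each scrotum-labelled library, as CPM + 0.1 on a log axis, DIK in red and WT in blue, with 1 symbol per replicate number and a bar at the mean of 3 libraries. KRT5, KRT6A, KRT4, KRT78 and TGM3 are above the WT libraries in every DIK library, while KRT1, KRT10 and KRT2 are highest in WT-s2.

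The late, dry-skin end of the programme depended on 1 normal library. Of 31 cornified epidermis genes 5 rose (23 without WT-s2) and 9 fell (1 without WT-s2), and the median was -0.54 with WT-s2 and 5.14 without it. The list took 2.68, 2.51 and 3.08% of the counts in DIK libraries, against 0.0455, 8.04 and 0.00833% in WT libraries, so WT-s2 was above and the other WT libraries were below the tumours. Since WT-s2 was left out for its epidermal RNA, higher values of epidermal genes without it follow in part from that choice. They are no independent check. KRT1, the first keratin of dry skin, had 382, 39.3 and 311 CPM in DIK and 23.9, 25243 and 12.5 CPM in WT libraries. KRT10, its partner, had 1381, 183 and 1014 CPM in the tumours and 46.995, 16975 and 37.1 CPM in WT tissue. Neither was called (-5.11 ± 2.09, adjusted p = 0.0635, and -2.73 ± 1.64, adjusted p = 0.196), and without WT-s2 both were higher in the tumours, by 3.75 ± 1.16 and 4.35 ± 0.96. LOR, loricrin, had 521, 289.6 and 824 CPM in DIK libraries, against 0.839, 769 and 0 CPM in WT libraries, a difference of 1.08 ± 1.63 (adjusted p = 0.617) that became 10.56 ± 1.28 without that library. CALML5, a calcium-binding protein of differentiating keratinocytes, had 49.2, 11.1 and 38.8 CPM in DIK and 3.78, 4596 and 3.26 CPM in WT libraries. Its difference was -5.54 ± 2.03 with all libraries (adjusted p = 0.0409) and 3.23 ± 0.96 without WT-s2 (adjusted p = 0.0118), the 1 gene called in opposite directions. It was also not called without DIK-s1, DIK-s2 or DIK-s3 (adjusted p = 0.0941 to 0.129). CASP14, a caspase of the cornified layer, differed by -1.29 ± 1.23 with WT-s2 (adjusted p = 0.42) and by 4.43 ± 0.82 without it.

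Some members kept their direction whichever WT libraries were used. TGM3, a transglutaminase that crosslinks the envelope, had 2804, 2878 and 3790.2 CPM in the tumours and 10.5, 153 and 2.01 CPM in WT tissue (5.83 ± 1.16, and 9.05 without WT-s2). TGM1, the membrane-bound transglutaminase, was higher too (3.95 ± 1.06, and 7.39 without WT-s2). IVL, involucrin, had 2785, 4487 and 3281 CPM in DIK libraries, against 14.3, 321 and 0.752 CPM in WT libraries (4.97 ± 1.46, and 8.95 without WT-s2). SERPINB12, a protease inhibitor, had 225, 89.4 and 373 CPM in DIK and 1.68, 24.9 and 0 CPM in WT libraries (4.63 ± 1.16, and 8.35 without WT-s2). CNFN, cornifelin, was higher as well (4.096 ± 1.52, and 10.50 without WT-s2), but was not called without DIK-s1, DIK-s2, DIK-s3 or WT-s1 (adjusted p = 0.0686 to 0.08196). Of 12 genes for envelope precursors and the plakins that line the shell, 8 rose and 1 fell (0 without DIK-s1, DIK-s2, DIK-s3 or WT-s2), with medians of 2.40 and 6.66 with and without WT-s2. ANXA1, annexin A1, had 48891, 63776 and 51007 CPM in the tumours and 332, 525 and 978 CPM in WT tissue (6.48 ± 0.67). A2ML1, an epidermal protease inhibitor, had 3407, 2469 and 4230.2 CPM in DIK libraries, against 5.04, 2.85 and 1.003 CPM in WT libraries (10.19 ± 0.85). EVPL, envoplakin, had 43.04, 52.6 and 49.4 CPM in DIK and 0.4196, 10.6 and 0 CPM in WT libraries (3.55 ± 0.88, and 7.96 without WT-s2). PPL, periplakin, had 361, 351 and 308 CPM in the tumours and 68.8, 92.1 and 113 CPM in WT tissue (1.89 ± 0.30). TP63, KRT1, KRT10, LOR, IVL, CNFN, CALML5, CASP14 and GJB2 lie outside the rule for named genes and were chosen after their values were seen.

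Of the cornified epidermis genes, KRT2, HRNR and LCE1F had next to no counts in the tumours and many counts in WT-s2 alone, unlike LOR. KRT2, the keratin of the uppermost living layer, had 0.559, 0.715 and 0.625 CPM in DIK libraries, against 1.68, 3918 and 1.76 CPM in WT libraries. It was called lower (-10.95 ± 2.67, adjusted p = 0.00488), but without WT-s2 the difference was -1.41 ± 0.97 (adjusted p = 0.242). HRNR, hornerin, had 0.279, 0.358 and 0 CPM in DIK and 0.4196, 509 and 0.502 CPM in WT libraries, so 1 WT library held nearly all of its counts. Its WT to DIK ratio was 884 (95% counting interval 244 to 7303), and it was not called without WT-s2 (adjusted p = 0.716). LCE1F, a late cornified envelope protein, had 0.279, 0 and 0 CPM in the tumours and 0, 149.6 and 0 CPM in WT tissue. Its WT to DIK ratio was 519 (95% counting interval 92.9 to 20530), again resting on 1 WT library, and it was not called without WT-s2 (adjusted p = 0.638) or any 1 of the DIK libraries (adjusted p = 0.0765 to 0.107). Of 14 tested lipid barrier genes 1 rose (10 without WT-s2) and 1 fell (0 without DIK-s1, DIK-s2, DIK-s3 or WT-s2, 2 without WT-s1 or WT-s3). Their median was 0.06 (-0.10 without WT-s1, 2.90 without WT-s2, -0.16 without WT-s3), but -0.0038 with upper-quartile scaling and -0.13 with library size only. SULT2B1, which makes cholesterol sulfate, had 215, 258 and 244 CPM in DIK libraries, against 3.36, 29.3 and 0.502 CPM in WT libraries (4.38 ± 0.87, and 7.12 without WT-s2). CERS3, the ceramide synthase of very long chains, had 26.8, 25.7 and 23.8 CPM in DIK and 0, 15.5 and 0 CPM in WT libraries, was not called with all libraries (adjusted p = 0.0668) and was called higher without WT-s2 (adjusted p = 4.89e-08). ACER1, an alkaline ceramidase, was the member called lower (-3.49 ± 1.23), and differed by 0.22 ± 0.79 without WT-s2 (adjusted p = 0.842). It was also not called without DIK-s1, DIK-s2 or DIK-s3 (adjusted p = 0.0687 to 0.123).

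**Figure D3:**
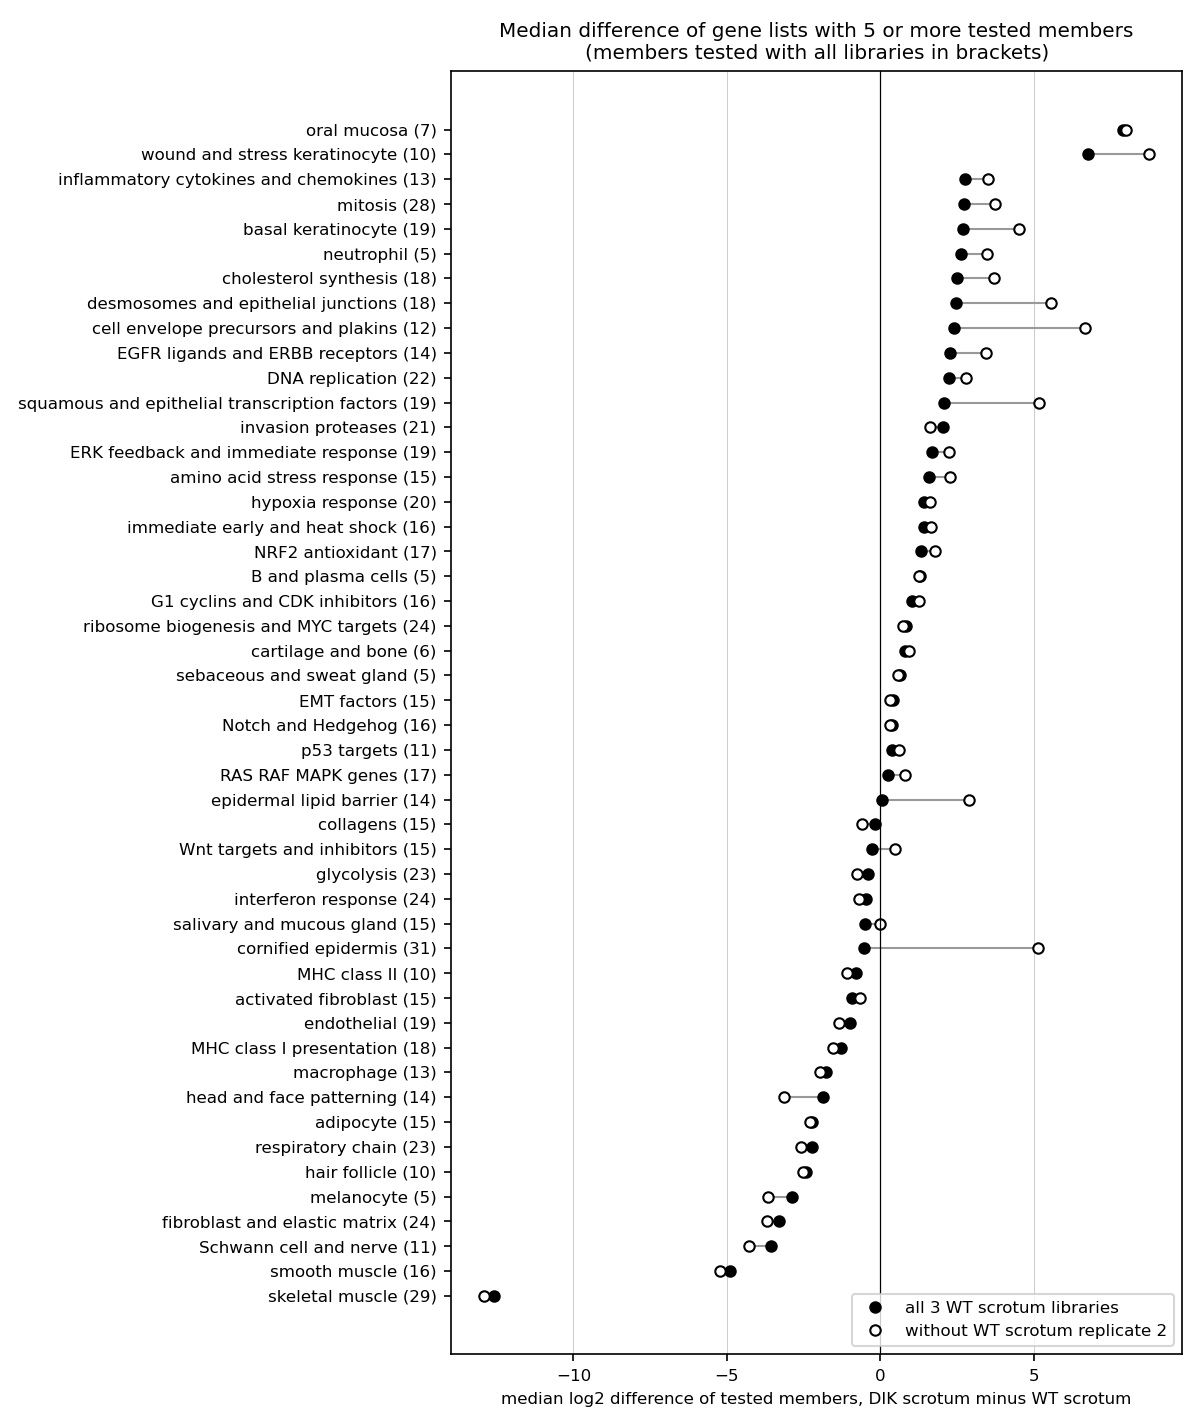
Median log2 difference, DIK scrotum minus WT scrotum, of each gene list with 5 or more tested members, with all 3 WT libraries (filled) and without WT-s2 (open). The cornified epidermis list moves from -0.54 to 5.14, and the skeletal muscle list stays at the far left (-12.60 and -12.90).

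Tumour libraries held more counts of cell division genes. Of 28 mitosis genes 26 rose and 0 fell, with medians of 2.72 and 3.72 with and without WT-s2. CCNB1, the cyclin that drives entry into mitosis, had 26.8, 35.8 and 35.002 CPM in the tumours and 0.839, 4.08 and 0.251 CPM in WT tissue (4.06 ± 0.54, and 5.98 without WT-s2). UBE2C, the ubiquitin carrier of the anaphase-promoting complex, had 54.5, 69.4 and 73.1 CPM in DIK libraries, against 0.839, 6.11 and 1.003 CPM in WT libraries (4.47 ± 0.49, and 6.07 without WT-s2). PLK1, a mitotic kinase, had 15.4, 17.5 and 14.4 CPM in DIK and 0, 0.815 and 0.752 CPM in WT libraries (4.63 ± 0.61). WT-s2 was the highest WT library for the first pair, and the groups did not overlap for any of these genes. MKI67, the proliferation marker Ki-67, had 10.9, 8.22 and 11.3 CPM in the tumours and 0.4196, 2.24 and 0.251 CPM in WT tissue (3.17 ± 0.52, and 4.85 without WT-s2), and was chosen after its values were seen. Of 22 tested DNA replication genes 16 rose and 0 fell, with a median of 2.25. PCNA, the sliding clamp of DNA polymerase, had 48.1, 56.5 and 54.4 CPM in DIK libraries, against 6.29, 11.4 and 7.27 CPM in WT libraries (2.64 ± 0.29). RRM2, which makes deoxynucleotides, had 51.1, 63.99 and 56.3 CPM in DIK and 1.68, 5.71 and 0.752 CPM in WT libraries (4.28 ± 0.61, and 5.63 without WT-s2). MCM2 and MCM4, parts of the replicative helicase, differed by 3.03 ± 0.43 and 2.91 ± 0.34.

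Control of entry into the cycle was mixed. Among 16 G1 cyclins and CDK inhibitors 8 rose (3 without DIK-s2 or WT-s1) and 1 fell (2 without WT-s2), with a median of 1.03. CDK6, a G1 kinase, had 75.7, 64.7 and 50.002 CPM in the tumours and 11.3, 26.5 and 19.3 CPM in WT tissue (1.72 ± 0.31). CCND1, cyclin D1, had 74.1, 74.003 and 39.4 CPM in DIK libraries, against 20.6, 42.995 and 26.8 CPM in WT libraries, so DIK-s3 lay below WT-s2. Its difference of 1.05 ± 0.32 (adjusted p = 0.0135) was not called without DIK-s1, DIK-s2, WT-s1 or WT-s3 (adjusted p = 0.0505 to 0.0684). CDKN1A, the CDK inhibitor p21, rose with the division genes, at 584, 815 and 384 CPM in DIK and 95.2, 94.96 and 71.2 CPM in WT libraries (2.77 ± 0.45). CDKN2C, the inhibitor p18, was lower, at 1.397, 2.15 and 1.25 CPM in the tumours and 7.13, 3.87 and 10.3 CPM in WT tissue (-2.09 ± 0.45). The inhibitors thus did not move together. Of 11 tested p53 targets 4 rose (2 without DIK-s1, DIK-s3 or WT-s1) and 2 fell, with a median of 0.37. SESN2, a stress-induced brake on mTORC1, had 18.2, 13.2 and 10.6 CPM in DIK libraries, against 1.26, 1.22 and 0.502 CPM in WT libraries (3.82 ± 0.66). Its relative SESN1 had 21.2, 21.1 and 27.5 CPM in DIK and 204, 30.6 and 129.9 CPM in WT libraries (-2.38 ± 0.53).

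**Figure D4:**
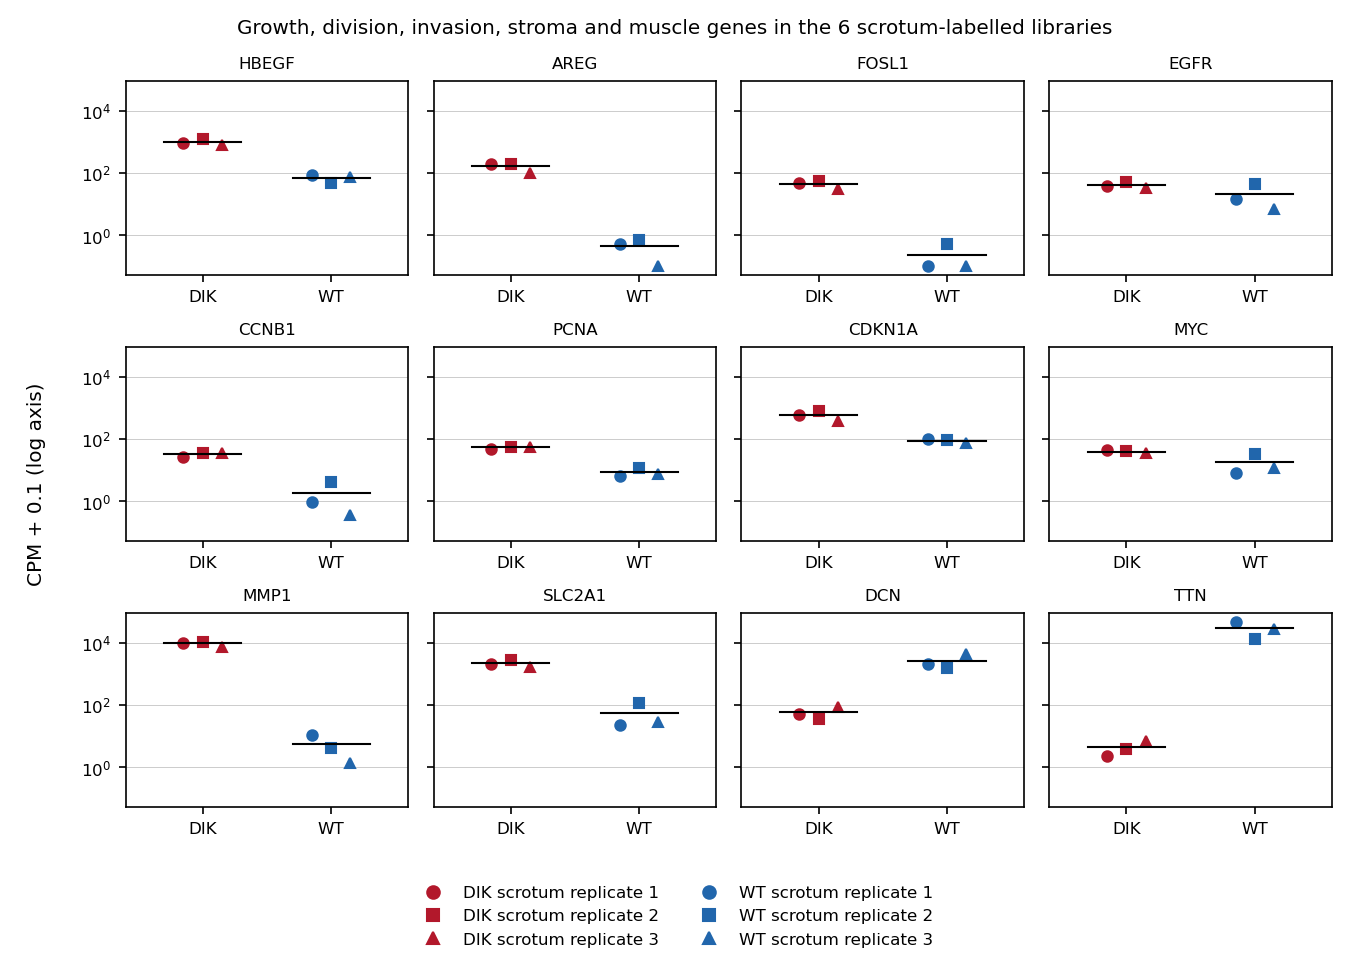
CPM of 12 genes of growth signalling, division, invasion, stroma and muscle in each scrotum-labelled library, as CPM + 0.1 on a log axis, with symbols as before and a bar at the mean of 3 libraries. HBEGF lies at 785 to 1242 CPM in DIK libraries, against 47.7 to 87.7 CPM in WT libraries, and TTN shows the opposite order.

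Genes of growth factor signalling moved in part, with several EGFR ligands clearly separated between the groups. RAS proteins pass signals from receptors such as EGFR to the kinases RAF, MEK and ERK. NRAS, at 5.87, 5.01 and 2.5001 CPM in the tumours and 1.68, 0.611 and 1.25 CPM in WT tissue, was higher by 2.03 ± 0.53. HRAS, at 15.4, 18.9 and 10 CPM in DIK libraries, against 3.78, 13.2 and 5.52 CPM in WT libraries, was not called (0.94 ± 0.41, adjusted p = 0.0727), and without WT-s2 it was higher by 1.65 ± 0.42. In the list of RAS, RAF and MAPK genes as a whole 4 rose (7 without WT-s2) and 2 fell (1 without DIK-s2 or WT-s1) of 17, with a median of 0.26. The kinase ARAF was among the members that fell, with a difference of -0.97 ± 0.28, and was not called without WT-s1 (adjusted p = 0.05399). RASA1, which switches RAS off, had 39.7, 28.6 and 15.6 CPM in DIK and 8.39, 10.6 and 9.28 CPM in WT libraries (1.58 ± 0.35). Which genes the knock-in carries is not given, so no gene served as a check of the genotype.

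Among 14 EGFR ligands and ERBB receptors 7 rose and 4 fell, with a median of 2.26 (3.45 without WT-s2). AREG, amphiregulin, had 197, 191 and 96.9 CPM in the tumours and 0.4196, 0.611 and 0 CPM in WT tissue (8.71 ± 1.11, and 9.70 without WT-s2). EPGN, epigen, had 36.9, 36.5 and 59.4 CPM in DIK libraries, against 0, 1.22 and 0.251 CPM in WT libraries (6.12 ± 0.53, and 7.84 without WT-s2). HBEGF, the heparin-binding EGF-like factor, had 879, 1242 and 785 CPM in DIK and 87.7, 47.7 and 73.5 CPM in WT libraries (3.80 ± 0.55). NRG1, the ligand of ERBB3 and ERBB4, had 47.8, 52.6 and 42.5 CPM in the tumours and 2.098, 0.611 and 0.251 CPM in WT tissue (5.78 ± 0.89). All these ligands were above the WT range in every tumour library. The ligand EGF and the receptor ERBB4, the only members at 0 counts in the DIK libraries, did have counts in WT libraries. The receptor EGFR itself, chosen after its values were seen, had 38.01, 49.3 and 31.3 CPM in DIK libraries, against 13.8, 43.8 and 6.77 CPM in WT libraries, and was not called (0.86 ± 0.44, adjusted p = 0.118), while without WT-s2 it was higher by 1.98 ± 0.34. ERRFI1, an inhibitor of EGFR that ERK signalling induces, had 106, 104 and 40.6 CPM in DIK and 4.62, 5.502 and 1.505 CPM in WT libraries (4.43 ± 0.63).

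Among genes that ERK signalling is known to induce more rose than fell. Of 19 tested members 10 rose and 2 fell (1 without DIK-s1, DIK-s2 or WT-s1), with a median of 1.70. FOSL1, the AP-1 subunit FRA1, had 48.1, 53.98 and 30.6 CPM in the tumours and 0, 0.408 and 0 CPM in WT tissue. With 2 counts over the WT libraries, its DIK to WT ratio was 263 (95% counting interval 72.3 to 2179.9). The tumours were above the WT libraries for FOSL1 and for the members that follow. PHLDA1, an early response gene, had 219.9, 214 and 146 CPM in DIK libraries, against 7.13, 7.74 and 14.8 CPM in WT libraries (4.28 ± 0.54). EPHA2, an ephrin receptor, had 480.1, 561 and 413 CPM in DIK and 38.6, 43.8 and 25.6 CPM in WT libraries (3.75 ± 0.39). SPRED1, an inhibitor of RAS to RAF signalling, had 85.5, 66.5 and 51.9 CPM in the tumours and 9.65, 11.004 and 13.3 CPM in WT tissue (2.58 ± 0.41). DUSP6, the phosphatase of ERK, had 30.2, 31.1 and 19.4 CPM in DIK libraries, against 10.9, 6.52 and 8.03 CPM in WT libraries, without overlap. Its difference of 1.70 ± 0.56 was not called without DIK-s1, DIK-s2, WT-s2 or WT-s3 (adjusted p = 0.0606 to 0.0668). MYC, a growth factor-induced transcription factor chosen after its values were seen, had 43.3, 39.3 and 33.8 CPM in DIK and 7.97, 33.6 and 11.8 CPM in WT libraries, and was not called (1.098 ± 0.49, adjusted p = 0.0775), whereas it was higher by 1.95 ± 0.47 without WT-s2.

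Fast stress genes rose in part. Of 16 immediate early and heat shock genes 8 rose and 1 fell (2 without WT-s2), with a median of 1.42. FOS, an AP-1 subunit, had 549, 354 and 206 CPM in the tumours and 0.839, 2.24 and 1.505 CPM in WT tissue (7.81 ± 0.73). JUNB, a partner of FOS in AP-1, had 329, 413 and 215 CPM in DIK libraries, against 9.23, 40.6 and 7.52 CPM in WT libraries (4.04 ± 0.53, and 5.26 without WT-s2). EGR1, a zinc finger factor, had 326, 163 and 96.9 CPM in DIK and 13.8, 21.6 and 4.26 CPM in WT libraries (3.88 ± 0.59, and 4.49 without WT-s2). DIK-s3 was the lowest tumour library for these transcription factors, and was still above the WT libraries. ZFP36, which destabilises short-lived messages, had 465, 376 and 187 CPM in the tumours and 14.3, 39.7 and 14.05 CPM in WT tissue (3.90 ± 0.47, and 4.60 without WT-s2). HSPA8, a chaperone, differed by 2.47 ± 0.40. Of 20 hypoxia genes 10 rose and 1 fell (2 without WT-s2), with a median of 1.42. NDRG1, a gene strongly induced by low oxygen, had 394, 523 and 236 CPM in DIK libraries, against 8.81, 20.99 and 15.6 CPM in WT libraries (4.65 ± 0.54). ERO1A, an oxidase of the secretory pathway, had 114, 108 and 43.8 CPM in DIK and 2.52, 3.46 and 2.01 CPM in WT libraries (5.02 ± 0.56). Again no WT library reached a tumour library. ADM, adrenomedullin, had 168, 110.5 and 48.8 CPM in the tumours and 9.65, 4.69 and 9.78 CPM in WT tissue (3.79 ± 0.55). BNIP3, which marks mitochondria for removal, had 729.9, 1236 and 688 CPM in DIK libraries, against 156, 229 and 104 CPM in WT libraries (2.44 ± 0.36).

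Most cholesterol synthesis genes and over 1 in 2 antioxidant genes were called higher. Of 18 cholesterol synthesis genes 15 rose and 0 fell, with a median of 2.49 (3.70 without WT-s2). HMGCS1, an early enzyme of the pathway, had 186, 213 and 303 CPM in DIK and 22.2, 34.03 and 13.04 CPM in WT libraries (3.33 ± 0.39). FDPS, which makes farnesyl diphosphate, had 571, 559 and 823 CPM in the tumours and 27.7, 72.5 and 29.3 CPM in WT tissue (3.91 ± 0.51, and 4.51 without WT-s2). LSS, which closes the sterol rings, differed by 3.37 ± 0.36. For these sterol genes the groups did not overlap. Of 17 tested NRF2 antioxidant genes 10 rose and 0 fell, with a median of 1.32. GCLC, the first enzyme of glutathione synthesis, had 72.7, 91.9 and 60.6 CPM in DIK libraries, against 3.36, 8.15 and 3.76 CPM in WT libraries (3.83 ± 0.45). TXN, thioredoxin, had 1979.6, 2016 and 1693 CPM in DIK and 49.9, 198 and 95.1 CPM in WT libraries (4.05 ± 0.43, and 4.70 without WT-s2). HMOX1, haem oxygenase 1, had 49.5, 67.9 and 20.6 CPM in the tumours and 0, 2.45 and 1.76 CPM in WT tissue (4.84 ± 0.81). These antioxidant genes were above the WT range in each tumour library.

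Of 24 ribosome biogenesis and MYC target genes 13 rose and 0 fell, with a smaller median of 0.84. NPM1, nucleophosmin, had 347, 386 and 481 CPM in DIK libraries, against 64.2, 106 and 71.5 CPM in WT libraries (2.33 ± 0.28), and FBL, fibrillarin, differed by 1.59 ± 0.26. Of 15 amino acid stress genes 5 rose and 1 fell, with a median of 1.57 (2.26 without WT-s2). ASNS, asparagine synthetase, had 59.5, 58.3 and 36.3 CPM in DIK and 5.04, 14.7 and 5.52 CPM in WT libraries (2.57 ± 0.60, and 3.28 without WT-s2). CHAC1, which degrades glutathione, had 122, 221 and 51.9 CPM in the tumours and 1.68, 7.74 and 0.251 CPM in WT tissue (5.23 ± 1.16, and 7.28 without WT-s2). VLDLR, a lipoprotein receptor also abundant in muscle and fat, was the member that fell (-2.101 ± 0.36).

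Among matrix-degrading enzymes more genes rose than fell, and most fibroblast matrix genes fell. Of 21 invasion protease genes 11 rose and 3 fell, with a median of 2.03. MMP1, interstitial collagenase, had 10032, 10715 and 7501 CPM in DIK libraries, against 10.5, 4.08 and 1.25 CPM in WT libraries (10.84 ± 1.46). MMP12, an elastase best known from macrophages, had 2189.5, 2376 and 963 CPM in DIK and 1.26, 1.02 and 0.251 CPM in WT libraries (11.10 ± 1.23). MMP9, gelatinase B, had 262, 361 and 158 CPM in the tumours and 0.4196, 0.408 and 0 CPM in WT tissue. With 3 counts over the WT libraries, its DIK to WT ratio was 1037 (95% counting interval 354 to 5030). In contrast MMP2, gelatinase A of stromal cells, had 19.8, 18.9 and 16.3 CPM in DIK libraries, against 352, 161 and 787 CPM in WT libraries (-4.55 ± 0.50). TIMP1 and TIMP3, inhibitors of these enzymes, moved apart. TIMP1 had 894, 1132 and 623 CPM in DIK and 52.5, 38.5 and 71.5 CPM in WT libraries (4.03 ± 0.53). TIMP3 had 10.1, 6.08 and 7.5003 CPM in the tumours and 248, 80.7 and 614 CPM in WT tissue (-5.30 ± 0.59).

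Of 24 fibroblast and elastic matrix genes 0 rose and 19 fell, with a median of -3.30 (-2.56 without WT-s3). DCN, decorin, had 49.7, 36.1 and 86.9 CPM in DIK libraries, against 2069, 1518 and 4279 CPM in WT libraries (-5.51 ± 0.54). MFAP5, of elastic microfibrils, had 2 counts over the DIK libraries, and its WT to DIK ratio was 1045 (95% counting interval 289 to 8632). OGN, osteoglycin, had 1.397, 1.07 and 0.625 CPM in DIK and 44.1, 17.3 and 106 CPM in WT libraries (-5.61 ± 0.68). WT-s3 was the highest library for each. Of 15 collagen genes 4 rose and 7 fell, with a median of -0.18 (0.47 without WT-s3). COL1A1, of collagen I, had 810.4, 1233 and 1166 CPM in the tumours and 2871, 1128 and 5446 CPM in WT tissue, with overlap. Its difference of -1.56 ± 0.48 was not called without WT-s3 (adjusted p = 0.136) or DIK-s1 (adjusted p = 0.0653), and the gene was chosen after its values were seen. COL14A1 and COL6A3 fell (-5.11 ± 0.72 and -2.35 ± 0.46), while COL4A1 of basement membranes had 261, 349 and 313 CPM in DIK libraries, against 66.7, 36.9 and 125 CPM in WT libraries (2.01 ± 0.42). COL12A1 and COL18A1 rose by 2.18 ± 0.29 and 2.68 ± 0.42.

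Of 15 activated fibroblast genes 5 rose and 8 fell (5 without WT-s3), with a median of -0.91. FN1, fibronectin, had 111, 113 and 97.5 CPM in DIK and 461, 295 and 1324 CPM in WT libraries (-2.69 ± 0.46). THBS1, thrombospondin 1, had 61.5, 56.5 and 48.1 CPM in the tumours and 5.87, 8.35 and 13.3 CPM in WT tissue (2.57 ± 0.42). WNT5A, a secreted ligand, had 14.8, 16.1 and 10 CPM in DIK libraries, against 0, 1.63 and 1.003 CPM in WT libraries (3.72 ± 0.61, and 4.42 without WT-s2). Genes tied to epithelial-mesenchymal transition (EMT) split. Of 15 members 5 rose and 5 fell, with a median of 0.41. SNAI2, a repressor also active in basal keratinocytes, had 188, 137 and 168 CPM in DIK and 16.8, 56.2 and 17.6 CPM in WT libraries (2.43 ± 0.48, and 3.26 without WT-s2). VIM, vimentin, had 260.5, 333 and 329 CPM in the tumours and 1822, 818 and 3538 CPM in WT tissue (-2.74 ± 0.46). ZEB2, a repressor of epithelial genes, had 6.15, 3.58 and 4.38 CPM in DIK libraries, against 25.6, 11.8 and 29.6 CPM in WT libraries (-2.21 ± 0.43). PRRX1, a fibroblast homeobox factor, differed by -3.55 ± 0.43. VIM and PRRX1 are also made by fibroblasts, most of whose matrix genes fell. The part of fibroblasts in these differences was not tested.

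Other resident tissues were lower or unresolved. Of 15 adipocyte genes 1 rose (0 without DIK-s1, DIK-s3 or WT-s3, 2 without WT-s2) and 8 fell, with a median of -2.23. ADIPOQ, adiponectin, had 1 count in the DIK libraries, and its WT to DIK ratio was 547 (95% counting interval 97.95 to 21647). GPD1, glycerol-3-phosphate dehydrogenase, had 0.838, 1.79 and 0.625 CPM in DIK and 619, 162 and 478 CPM in WT libraries (-8.50 ± 0.63). LPL, lipoprotein lipase, had 7.27, 5.36 and 16.9 CPM in the tumours and 706, 152 and 348 CPM in WT tissue (-5.40 ± 0.75). Of 11 Schwann cell and nerve genes 1 rose (2 without WT-s2) and 8 fell, with a median of -3.55 (-4.28 without DIK-s1, -4.27 without WT-s2), and MAL was the member that rose. S100B, a calcium-binding protein of Schwann cells, had 1.96, 0.715 and 1.88 CPM in DIK libraries, against 39.4, 11.6 and 106 CPM in WT libraries (-5.09 ± 0.76). SOX10, NCAM1 and CDH19 were at 0 in the DIK libraries. NCAM1, at 19.7, 7.74 and 23.6 CPM in WT libraries, was at least 42.2-fold lower. Of 19 endothelial genes 1 rose (0 without DIK-s2, WT-s1 or WT-s2) and 7 fell, with a median of -0.99. PECAM1, the adhesion protein CD31, had 42.8, 31.8 and 35.6 CPM in DIK and 117, 43.4 and 402 CPM in WT libraries, with WT-s2 close to the tumours. Its difference of -2.35 ± 0.51 became -1.12 without WT-s3, the library with the most endothelial counts. CLDN5, a tight junction protein of vessels, had a difference of -2.35 ± 0.46, and of -1.38 without WT-s3. VWF, von Willebrand factor, differed by -2.89 ± 0.49. Of 5 melanocyte genes 0 rose and 3 fell, with a median of -2.88 (-3.67 to -5.21 without DIK-s1, DIK-s2, DIK-s3, WT-s1, WT-s2 or WT-s3). MITF, the melanocyte transcription factor, had 3.35, 2.15 and 2.5001 CPM in the tumours and 26.4, 15.9 and 18.8 CPM in WT tissue (-2.88 ± 0.36).

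Hair, gland and bone genes were few and uneven. Of 10 hair follicle genes 1 rose (4 without WT-s2) and 5 fell (8 without DIK-s2, DIK-s3 or WT-s3), with a median of -2.44 (-5.35 to -6.62 without DIK-s1, DIK-s2, DIK-s3 or WT-s3). KRT35, a hair keratin, had 0.279, 0 and 0 CPM in DIK libraries, against 184, 331 and 0 CPM in WT libraries. It was present in WT-s1 and WT-s2 but at 0 in WT-s3, and with 1 count in the DIK libraries its WT to DIK ratio was 1457 (95% counting interval 261 to 57568). TCHH, trichohyalin, showed the same unevenness, at 5.59, 5.36 and 3.13 CPM in DIK and 309, 369 and 0.502 CPM in WT libraries (-5.54 ± 1.34). CTSV, a cathepsin also made by keratinocytes, was the member that rose (2.59 ± 0.38). Of 15 salivary and mucous gland genes 3 rose (1 without DIK-s2, WT-s1 or WT-s3) and 3 fell (1 without DIK-s1, DIK-s2, DIK-s3 or WT-s3), with a median of -0.49. SAL1, the salivary lipocalin of the pig, had 0.279, 0.715 and 0 CPM in the tumours and 118, 142 and 31.1 CPM in WT tissue, and its WT to DIK ratio was 259 (95% counting interval 88.5 to 1259). KRT19, also a keratin of non-keratinising epithelium, had 784, 1735 and 531 CPM in DIK libraries, against 37.8, 52.4 and 6.77 CPM in WT libraries (4.97 ± 1.61), and was not called without DIK-s2, WT-s1 or WT-s3 (adjusted p = 0.0631 to 0.0792). Of 5 sebaceous and sweat gland genes 1 rose (0 without DIK-s1, DIK-s3 or WT-s3) and 1 fell (0 without DIK-s3 or WT-s1), with a median of 0.63. Of 6 cartilage and bone genes 1 rose (2 without WT-s2) and 1 fell, with a median of 0.82. RUNX2, the factor that sets bone-forming cells, was the member that rose, at 27.1, 25.4 and 13.1 CPM in DIK and 0.839, 1.43 and 2.26 CPM in WT libraries (3.79 ± 0.49). Of 2 tested testis and epididymis genes 1 rose (0 without WT-s3) and 1 fell, with a median of 0.52.

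Most of the cytokine and neutrophil genes tested were called higher, while few lymphocyte genes could be tested. Of 13 tested cytokine and chemokine genes 10 rose and 1 fell (0 without DIK-s2 or WT-s3), with a median of 2.75 (3.52 without DIK-s3, 3.49 without WT-s2, 4.39 without WT-s3). IL24, a cytokine of the IL10 family, had 12.9, 10.7 and 9.38 CPM in DIK libraries and 0 counts in the WT libraries, at least 42.9-fold higher. CXCL2, which draws neutrophils, had 116, 153 and 46.9 CPM in the tumours and 0, 0.408 and 0.502 CPM in WT tissue (8.11 ± 1.22). AMCF-II, a pig chemokine for neutrophils, had 218, 599.9 and 62.5 CPM in DIK libraries, against 0, 0.204 and 0 CPM in WT libraries. With 1 count in the WT libraries its DIK to WT ratio was 3619 (95% counting interval 649 to 142980). All 3 of these cytokine genes were at or near 0 in every WT library. PTGS2, cyclooxygenase 2, had 381, 254 and 196 CPM in DIK and 0.839, 0 and 1.505 CPM in WT libraries (8.50 ± 1.37, and 7.77 without WT-s2). PTGES, which makes prostaglandin E2, had 117, 175 and 92.5 CPM in the tumours and 6.71, 4.69 and 26.6 CPM in WT tissue (3.33 ± 0.57). CCL2, which draws monocytes, had 30.5, 31.8 and 32.5 CPM in DIK libraries, against 3.78, 2.45 and 8.53 CPM in WT libraries (2.67 ± 0.35). Of 5 tested neutrophil genes 4 rose and 1 fell, with a median of 2.61 (1.96 without DIK-s2, 3.49 without WT-s2). CXCR2, the receptor for such chemokines, had 17.05, 20.4 and 9.38 CPM in DIK and 0.839, 4.48 and 1.76 CPM in WT libraries (2.61 ± 0.51, and 3.49 without WT-s2). S100A12, listed for neutrophils but also made by keratinocytes, had 9518, 14689 and 8674 CPM in the tumours and 17.6, 72.5 and 4.77 CPM in WT tissue (8.43 ± 1.23, and 9.97 without WT-s2). That gene took most of the list's counts, which summed to 9809, 15084 and 8855 CPM in DIK libraries, against 30.6, 86.6 and 16.6 CPM in WT libraries. The granule genes MPO, PGLYRP1 and ELANE were at 0 in the DIK libraries, and ELANE was at 0 in the WT libraries too. MPO and ELANE were too low to test, and PGLYRP1 was the member that fell.

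Of 13 macrophage genes 2 rose and 7 fell, with a median of -1.78. C1QB, of complement C1q, had 7.27, 6.08 and 6.25 CPM in DIK libraries, against 26.02, 21.8 and 60.2 CPM in WT libraries (-2.45 ± 0.43). CSF1R, the receptor for macrophage growth factor, had 6.43, 5.01 and 4.38 CPM in DIK and 16.4, 13.9 and 25.3 CPM in WT libraries (-1.78 ± 0.34). APOE, a lipid carrier made by macrophages and fat cells, had 5.59, 5.01 and 1.88 CPM in the tumours and 64.6, 22.8 and 79.3 CPM in WT tissue (-3.65 ± 0.60). CD68, a lysosomal protein, went the other way, at 75.7, 154 and 45.002 CPM in DIK libraries, against 5.45, 6.32 and 17.1 CPM in WT libraries (3.24 ± 0.44). MS4A2, a chain of the mast cell IgE receptor, had 4.75, 2.86 and 10.6 CPM in DIK and 83.9, 45.6 and 90.8 CPM in WT libraries (-3.68 ± 0.54). Of 3 tested mast cell genes 0 rose and 2 fell (1 without DIK-s2, WT-s1 or WT-s3), with a median of -1.83 (-3.53 without DIK-s1). T and NK cell genes were mostly too low to test. Of their 21 genes 2 were tested, CD247 and NKG7, and 0 rose and 0 fell (1 without DIK-s1 or WT-s2), with a median of -1.05 (-2.82 without DIK-s1, -1.83 without WT-s1) and adjusted p of 0.309 and 0.0519. They summed to 24.6, 19.7 and 26.9 CPM in DIK libraries, against 35.7, 26.3 and 34.4 CPM in WT libraries. Of 5 B and plasma cell genes 2 rose and 0 fell, with a median of 1.29. PRDM1 was 1 of them (3.55 ± 0.84, and 6.55 without WT-s2), and it also drives keratinocyte differentiation. The 1 tested erythrocyte gene, the globin HBB, differed by -1.70 (adjusted p = 0.205), and was called lower without DIK-s1 (-3.14).

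MHC class I genes show antigens of the cell's own making to T cells, and most were lower. Of 18 tested 1 rose and 12 fell (5 without WT-s3), with a median of -1.29. B2M, the light chain of class I, had 45.3, 41.5 and 49.4 CPM in the tumours and 102, 77.4 and 241 CPM in WT tissue. All DIK libraries were below the WT libraries, and the difference was -1.63 ± 0.36, and -0.98 without WT-s3. SLA-1, a class I heavy chain of the pig with close copies, differed by -1.55 ± 0.36, and by -1.03 without that library. PSME2, of the proteasome activator, was the member that rose (1.43 ± 0.31). Of 10 MHC class II genes 0 rose and 3 fell (0 without DIK-s2 or WT-s3, 5 without WT-s2), with a median of -0.79. CD74, the invariant chain, had 83.8, 67.2 and 84.4 CPM in DIK libraries, against 166, 104 and 199 CPM in WT libraries, a difference of -0.99 ± 0.35 that was not called without DIK-s1, DIK-s2, DIK-s3, WT-s1 or WT-s3 (adjusted p = 0.05597 to 0.118). Of 24 interferon response genes 3 rose (1 without WT-s2 or WT-s3) and 2 fell (0 without DIK-s2 or WT-s3, 7 without WT-s2), with a median of -0.46. ISG15, a ubiquitin-like protein, had 40.2, 113 and 102 CPM in DIK and 13.4, 6.93 and 28.1 CPM in WT libraries (2.39 ± 0.48). IFI44L, another interferon-induced gene, differed by -1.74 ± 0.60, and was not called without DIK-s1, DIK-s2 or WT-s3 (adjusted p = 0.0609 to 0.179).

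Developmental signalling changed in single genes more than as groups. Of 15 Wnt targets and inhibitors 3 rose (5 without WT-s2) and 3 fell (1 without DIK-s1), with a median of -0.27 (0.49 without WT-s2). Of 16 Notch and Hedgehog genes 3 rose (1 without WT-s1 or WT-s3, 7 without WT-s2) and 2 fell (1 without DIK-s2, DIK-s3 or WT-s1), with a median of 0.38. DKK3, a secreted dickkopf protein, had 45.8, 53.6 and 44.4 CPM in the tumours and 8.39, 10.2 and 7.77 CPM in WT tissue (2.44 ± 0.34). Its relative DKK2, an inhibitor of Wnt signalling, had 0.838, 0.358 and 0 CPM in DIK libraries, against 7.55, 5.298 and 9.28 CPM in WT libraries (-3.81 ± 0.80). WNT10A, a ligand needed for skin appendages and tongue papillae, had 11.7, 11.4 and 10 CPM in DIK and 1.68, 2.45 and 1.505 CPM in WT libraries (2.52 ± 0.38). NRARP, a feedback target of Notch, had 6.71, 11.8 and 15.001 CPM in the tumours and 0, 3.67 and 0.502 CPM in WT tissue (2.71 ± 0.63, and 4.98 without WT-s2). These genes thus moved both ways. Of 14 head and face patterning genes 2 rose (5 without WT-s2) and 7 fell, with a median of -1.87 (-2.96 to -3.16 without DIK-s1, DIK-s2, DIK-s3 or WT-s2). PITX1, given above, was among the members that rose. TBX1, of the pharyngeal arches, had 2.24, 1.79 and 0.625 CPM in DIK libraries, against 50.4, 32.8 and 32.6 CPM in WT libraries (-4.47 ± 0.45). PAX3, a factor of muscle precursors and neural crest, had 1 count in the DIK libraries, and its WT to DIK ratio was 34.7 (95% counting interval 5.93 to 1396).

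The most abundant genes and the largest called differences put these groups side by side. The 10 genes with the highest mean CPM in the tumours, a rank that also depends on transcript length, included ANXA1, KRT5, KRT6A, MMP1, S100A12 and SPRP, a small proline-rich envelope protein with 16833, 20449 and 28491 CPM in DIK and 63.4, 1984 and 13.04 CPM in WT libraries (4.996 ± 1.39, and 9.18 without WT-s2). LGALS4, a galectin of digestive and oral epithelium, was another, with 9402, 8432 and 10729 CPM in the tumours and 7.97, 49.1 and 2.51 CPM in WT tissue (8.89 ± 1.03, and 10.88 without WT-s2). ACTB, cytoplasmic beta-actin, had 27507, 36141 and 31441 CPM in DIK libraries, against 6921, 9646 and 11765 CPM in WT libraries (1.747 ± 0.40). ACTG1, the gamma form, had 15861, 22830 and 18177 CPM in DIK and 14857, 28690 and 25258 CPM in WT libraries, with no call (-0.27 ± 0.38, adjusted p = 0.583). In WT tissue the same rank included ACTA1, MYH1, MYH2, MYL1, TTN, TPM2, CKM and ACTA2. Among the 15 largest increases were MMP12, AMCF-II, ARG1, MMP1, DEFB1, A2ML1, KRT4, MUC21, ODAM and UPP1. ARG1, arginase 1, had 7520.1, 12351 and 5516 CPM in the tumours and 7.97, 4.28 and 1.505 CPM in WT tissue (10.88 ± 0.91). ODAM, a protein of the gum's junctional epithelium, had 1009, 1099 and 249 CPM in DIK libraries, against 2.098, 0.408 and 0 CPM in WT libraries (10.12 ± 1.15). UPP1, uridine phosphorylase, had 1398, 3253 and 1321 CPM in DIK and 2.098, 2.85 and 0.752 CPM in WT libraries (9.998 ± 1.11). FAM3B had 40.2, 56.8 and 35.6 CPM in DIK libraries and 0 counts in WT libraries, at least 169.7-fold higher. The 15 largest decreases were genes known from striated muscle, among them MYBPC1, CKMT2, NEB, TNNC1, MYL2, PYGM and TCAP. NEB, the ruler of thin filaments, had 2 counts in the DIK libraries, and its WT to DIK ratio was 19595 (95% counting interval 5424 to 161810).

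The tumour-against-normal difference was then set against those at the nose and mouth labels, each with its own WT libraries, by testing the difference between differences. It departed from the nose label for 411 genes upward and 575 downward (7.65% of tested genes, 3.19% upward and 4.46% downward) and from the mouth label for 646 upward and 1044 downward (13.1%, 5.01% upward and 8.1% downward). Without DIK-s2 these were 213 upward and 226 downward from the nose label, and 423 and 695 from the mouth label. Without DIK-s1 there were 254 and 316 from the nose label, and without DIK-s3 382 downward from it. All 23 respiratory chain genes departed downward from the mouth label, and 5 from the nose label (17 without WT-s2, 3 without WT-s3, 1 without DIK-s3 and 0 without DIK-s1, DIK-s2 or WT-s1), with list medians of -2.23 at the scrotum label, -1.13 at the nose label and 0.66 at the mouth label. Skeletal muscle genes were lower at all 3 labels by median, at -12.60, -10.59 and -6.23 in the same order. PYGM, muscle glycogen phosphorylase, was counted at 9645, 2853 and 6801 CPM in WT scrotum libraries, with a mean of 4385 CPM in WT nose and 177 CPM in WT mouth libraries. SDHA averaged 622 CPM in WT scrotum, 423 CPM in WT nose and 90.8 CPM in WT mouth libraries.

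Immune lists were set beside the other labels in the same way. Of 24 interferon genes 9 departed downward from the nose label, with medians of -0.46 at the scrotum label, 1.66 at the nose label and -0.61 at the mouth label. Of 10 MHC class II genes 7 departed downward from the nose label (3 without DIK-s1 or DIK-s3, 1 without DIK-s2 and 2 without WT-s3), with medians of -0.79, 1.43 and 0.08 in the same order. ISG15 averaged 85.03 CPM in DIK scrotum libraries and 1122 CPM in DIK nose libraries, and its difference at the scrotum label was below that at the nose label (-3.39 ± 0.67, adjusted p = 0.00543). Cornified epidermis genes departed downward in 14 and 17 of 31 cases from the nose and mouth labels, and in 6 and 8 without WT-s2. Leaving out 1 DIK library gave 6 to 7 and 10 to 12, and leaving out WT-s3 gave 24 and 27.

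**Figure D5:**
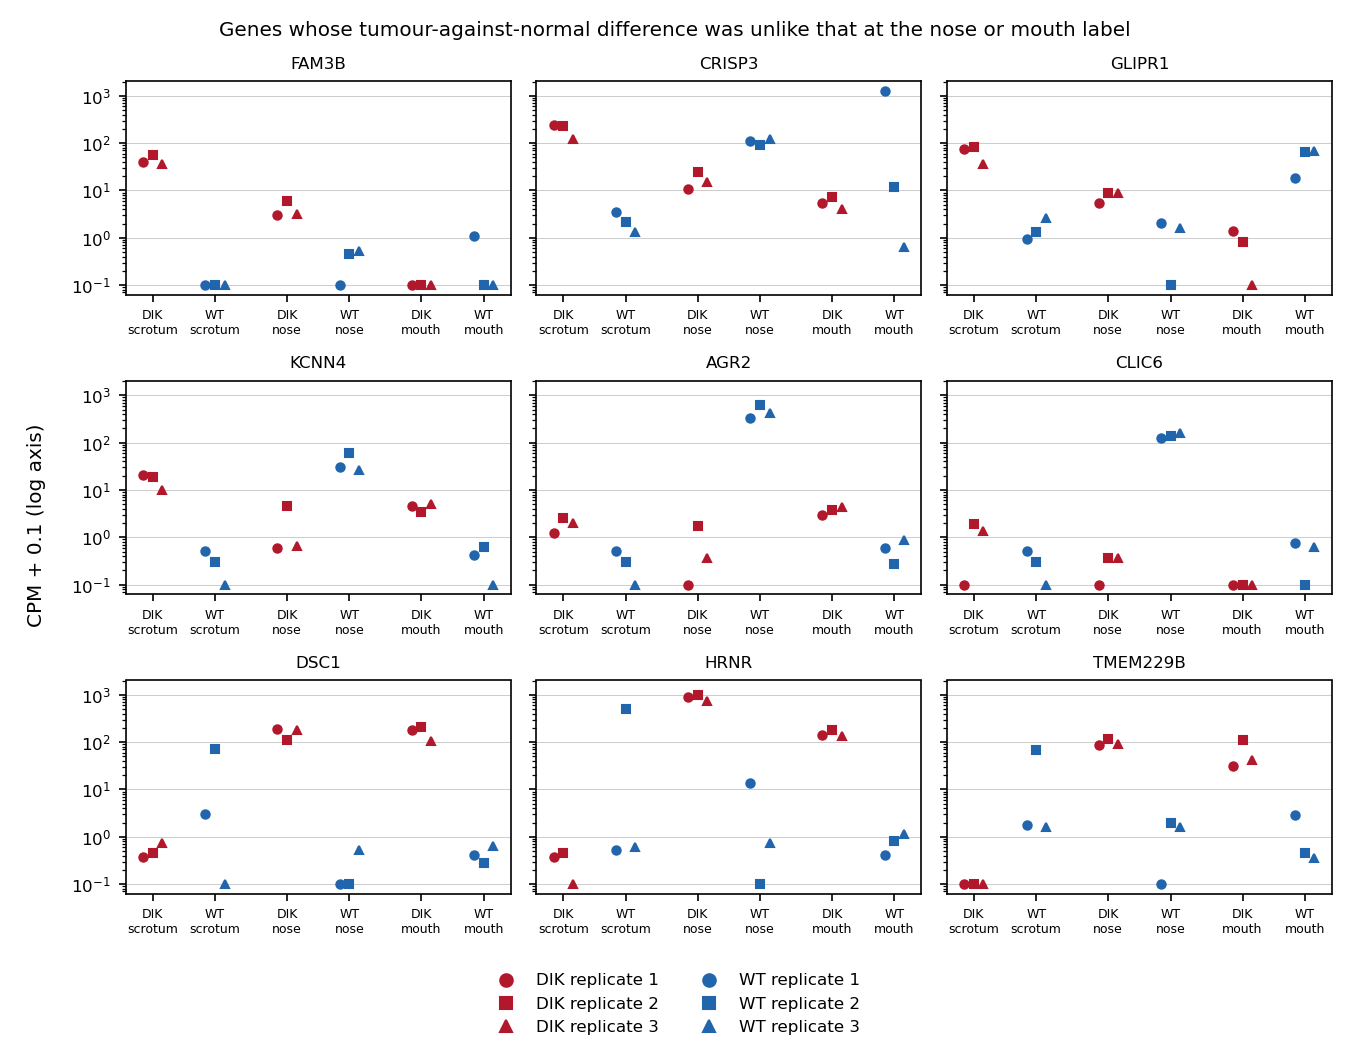
CPM of 9 genes in all 18 libraries, as CPM + 0.1 on a log axis, with DIK in red and WT in blue at each label and 1 symbol per replicate number. FAM3B, CRISP3 and GLIPR1 are high in the DIK scrotum libraries, CRISP3 also in the WT nose libraries (91.3 to 121 CPM) and in WT mouth replicate 1 (1248 CPM), and GLIPR1 also in the WT mouth libraries. AGR2 and CLIC6 are high in the WT nose libraries, and DSC1, HRNR and TMEM229B in the DIK nose and mouth libraries and in WT scrotum replicate 2.

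Single genes differed in which libraries made the departure. FAM3B, a secreted protein, had 40.2, 56.8 and 35.6 CPM in DIK scrotum libraries, 2.91, 5.92 and 3.003 CPM in DIK nose libraries, and 0 counts in DIK mouth libraries. CRISP3, a cysteine-rich secretory protein of saliva, had 243, 235 and 122 CPM in the tumours and 3.36, 2.04 and 1.25 CPM in WT tissue, but 5.38, 7.29 and 3.998 CPM in DIK mouth libraries, against 1248, 11.5 and 0.525 CPM in WT mouth libraries. So it was higher in the tumours at the scrotum label and uneven in normal tissue at the mouth label. GLIPR1 had 73.8, 82.2 and 35.6 CPM in DIK libraries, against 0.839, 1.22 and 2.51 CPM in WT libraries, and at the mouth label 1.27, 0.729 and 0 CPM in DIK libraries, against 18.03, 66.1 and 66.6 CPM in WT libraries. KCNN4, a calcium-activated potassium channel, had 20.4, 18.6 and 10 CPM in DIK and 0.4196, 0.204 and 0 CPM in WT libraries, and at the nose label 0.486, 4.58 and 0.546 CPM in DIK libraries, against 30.7, 58.8 and 26.3 CPM in WT libraries. GLIPR1 and KCNN4 thus had opposite directions at the labels compared. DSC1, a desmosomal cadherin of dry skin, had 0.279, 0.358 and 0.625 CPM in the tumours and 2.94, 72.95 and 0 CPM in WT tissue, against 188, 109 and 179 CPM in DIK nose and 183, 206 and 104 CPM in DIK mouth libraries. The tumours labelled scrotum thus lacked DSC1 counts that the other tumours of the same founder held, while the scrotum difference itself was not called without WT-s2 (adjusted p = 0.256). The departure was called without WT-s2 as well (-10.70 and -10.42 on the log2 scale).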

How the data were processed

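Per the submitters' processing notes, fastp, HISAT2 2.1.0 and HTSeq 0.11.2 made the deposited table of raw read counts per gene, 1 column per library for 18 libraries. The genome build and the strandedness of counting are not given in those notes, so antisense and overlapping genes cannot be told apart, nor can reads shared by near copies. Of 27339 gene symbols 26838 matched RefSeq, which supplied names only. All columns were mapped to samples by their labels.

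Counts were tested with edgeR 4.0.16 in R 4.3.3 (TMM scaling, quasi-likelihood F test with robust dispersion, 1 mean per group, all 18 libraries in 6 groups). The filter was filterByExpr with a minimum count of 10 and a minimum total of 15, which left 12895 genes, 1437 of them under placeholder symbols. The SE of a log2 difference is its size divided by the square root of F. The biological coefficient of variation was 36.14%. The scripts were tested on simulated counts.

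The members and the 53 gene lists (1048 entries) were chosen with earlier results of these data known. Genes were named by a rule: the 15 largest called, non-overlapping differences in each direction at 10 CPM or more that held without WT-s2, the 10 of highest mean CPM in each group, the 5 smallest adjusted p in each list, the 5 largest departures from each other label in each direction, and, in each direction, the 5 largest whose call or sign changed without WT-s2. Beyond the rule, 14 genes were chosen after their values were seen, and the text says which. Some genes that the rule named are not reported here. Genes with 0 counts in a group are given as bounds against 3 counts over that group, and those with 1 to 3 counts as ratios with 95% intervals. Intervals and floors cover counting error only. Alternatives were other scalings and filters, DESeq2 1.42.0, limma-voom with quality weights (limma 3.58.1), the 6 scrotum libraries alone, a replicate block, stricter thresholds and each library left out. Leaving out WT-s2 was planned with its high epidermal RNA already known. Leaving out the shallow WT nose replicate 1, alone or with WT-s2, was added after seeing the data. Promoter sequences were not used here.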

Additional observations from a re-analysis of the deposited data

Results flagged for a closer look

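The tumour-against-normal difference at the scrotum label departed from that at the nose label, by a test of the difference between differences, for 411 genes upward and 575 downward, and from that at the mouth label for 646 upward and 1044 downward. Without DIK-s2 these were 213 and 226 from the nose label, and 423 and 695 from the mouth label. The 5 largest in each direction follow as log2 departures, scrotum minus the other label. Values of genes with groups at 0 counts depend on the prior count of the fit.

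Upward from the nose label were WFDC2 at 13.25, AGR2 at 12.56, CLIC6 at 11.53, FOXI1 at 11.43 and KCNN4 at 10.67. WFDC2, AGR2, CLIC6 and FOXI1 are best known from glandular and airway epithelium. AGR2 and CLIC6 were high in normal nose tissue. AGR2 had 0, 1.62 and 0.273 CPM in DIK nose libraries, against 338, 617 and 418 CPM in WT nose libraries, and CLIC6 had 0, 0.269 and 0.273 CPM, against 125, 138 and 156 CPM. WFDC2 had 0.838, 1.07 and 0 CPM in DIK scrotum libraries, against 0.839, 0.204 and 0 CPM in WT scrotum libraries, and 92.1, 153 and 147 CPM in WT nose libraries. Downward from the nose label were HRNR at -18.00, LCE1F at -17.48, MT4 at -16.85, TMEM229B at -15.51 and DSC1 at -15.12. Without WT-s2, these were -9.85, -6.95, -13.48, -11.54 and -10.70, and LCE1F was not called (adjusted p = 1).

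Upward from the mouth label were FAM3B at 13.90, CRISP3 at 12.76, GLIPR1 at 11.53, FMO2 at 9.84 and FGF12 at 9.16. FMO2, a monooxygenase, had 0 CPM in DIK mouth libraries, against 10.8, 5.403 and 4.197 CPM in WT mouth libraries. At the scrotum label it had 56.2, 18.2 and 53.1 CPM in DIK libraries, against 10.5, 12.2 and 5.27 CPM in WT libraries. Its departure thus rests on both labels. FGF12 had 0 CPM in DIK mouth libraries, against 6.44, 14.99 and 12.3 CPM in WT mouth libraries. Downward were HRNR at -17.02, TMEM229B at -15.10, DSC1 at -14.82, DAPL1 at -14.71 and LCE1F at -14.03. Without WT-s2 these were -8.63, -11.13, -10.42, -11.96 and -3.53, and LCE1F was not called (adjusted p = 0.998). TMEM229B had 0 CPM in DIK scrotum libraries, against 84.7, 118 and 91.7 CPM in DIK nose and 31.01, 108 and 42.1 CPM in DIK mouth libraries.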

How the results depend on the processing

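Counts of genes called between DIK and WT scrotum libraries were within 1.5 times the reported ones under every alternative but 1. At an adjusted p under 0.01, 1623 genes were higher. The 6 scrotum libraries fitted alone gave 1676 higher and 2167 lower. Leaving out 1 scrotum library at a time gave 1983 to 3203 higher and 2478 to 3365 lower. Library size scaling alone gave 1946 higher and 3243 lower, and moved the median of all genes to -0.21 from the reported -0.09. Upper-quartile scaling gave 2343 and 3320. Departures from the other labels depended more on the method. From the nose label, limma-voom with quality weights gave 952 upward and 962 downward, a threshold of 0.01 gave 146 and 131, and leaving out 1 scrotum library gave 213 to 558 and 226 to 831. From the mouth label, limma-voom gave 1087 upward, a threshold of 0.01 gave 264 and 469, and leaving out 1 library gave 423 to 769 and 695 to 1261. The lowest counts came without DIK-s2, and the highest without WT-s3, except upward from the nose label, where it was without WT-s2. From the nose label there were 254 upward and 316 downward without DIK-s1, and 382 downward without DIK-s3.

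Replicate numbers did not pair the libraries, since deviations of same-numbered DIK and WT scrotum libraries correlated at -0.0479, -0.000968 and -0.0483, and the samples share only a number. With the number as a replicate block, 2393 genes were higher and 2785 lower, 278 and 265 departed from the nose label upward and downward, and 529 and 711 from the mouth label.

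Of the 202 genes followed through the alternatives 187 were called, and 169 of these were called in the same direction without each single scrotum library. Signs turned without WT-s2, and again without WT nose replicate 1 as well, for ACER1 (0.22 and 0.20, against -3.49 with all libraries and -4.05 at the other end of the left-out range), LCE1F (2.18 and 2.23, other end -10.53), KRT1 (3.75 and 3.74, other end -5.69), KRT10 (4.35 and 4.34, other end -3.31), CALML5 (3.23 and 3.21, other end -6.12) and CASP14 (4.43 and 4.40, other end -1.87). CALML5 was also 1.74 with limma-voom and 1.73 with the replicate block, and CASP14 3.30 with limma-voom, which gives less weight to libraries that stand apart. The cause was not tested. Fitted on the 6 scrotum libraries alone, 16 calls were lost, among them KRT5, SPRP, JUP, TGM1, EVPL, OVOL1, IVL, ARAF and CD74. With limma-voom 9 were lost, among them KRT2, TCHH, KRT35, HRNR and DSC1, and 6 were gained, CERS3, LOR, TP63, MYC, EGFR and HRAS. With 3 counts worth 0.838 to 1.88 CPM in the DIK libraries, genes under about that level could not be resolved.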
